A study of Mus musculus with 12 samples.

Results

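Cardiomyocytes (CMs) lacking Nrip1 (csNrip1-/-) carried H3K27ac, a histone mark of active promoters and enhancers, at 835 promoter regions of protein-coding genes where the control CMs had no listed region. These KO-only promoter regions are the subject here. They were selected on measured values: a region in the csNrip1-/- list, narrower than 10000 bp and on chromosomes 1 to 19 or X, qualified if it shared not a single base with any region of the control list and if its center lay from 1000 bp upstream to 100 bp downstream of an annotated start of a protein-coding gene (GENCODE M21 on GRCm38). The csNrip1-/- list held 45517 regions on these chromosomes, of which 9785 (21.5%) were KO-only, and the 835 were 8.53% of those. Of the 5734 csNrip1-/- regions at such promoters, 14.6% were KO-only. The mirror class, control-only promoter regions, held 705 of the 5948 control promoter regions (11.9%), against 29.5% of control regions anywhere. In each list the share found in that list only was lower at promoters than over all regions. Since the rule used this contrast, the shares are given as a description.

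The regions come from CUT&RUN, in which an antibody tethers a nuclease to chromatin and the released DNA is sequenced, on CMs enriched by low-speed centrifugation from male mice 10 to 12 weeks old, with 200000 CMs per experiment. Both genotypes carry the floxed Nrip1 allele (Nrip1 f/f). The csNrip1-/- mice also carry Cre under the Nkx2.5 promoter, which acts in cardiac cells, and their Cre-negative littermates are the controls. Each genotype had 3 H3K27ac and 3 IgG replicates, but each deposited list is a merge of the regions found in at least 2 of 3 replicates, so no value per replicate, no signal and no depth stands behind a region, and the tests below compare regions, not mice.

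H3K27ac, histone H3 acetylated at a lysine of its tail, lies on the nucleosomes that flank active promoters and enhancers. Most promoters of genes that all cells use sit in CpG islands, stretches rich in the dinucleotide CG that stay unmethylated, whereas many tissue-restricted promoters and internal alternative starts do not. RIP140, the product of Nrip1, is a corepressor of nuclear receptors, among them the estrogen-related receptors (ERRs) that drive genes of fuel oxidation in the heart, and it recruits histone deacetylases.

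As a check of the labels, 2904 of the 7616 bp of the last exon of Nrip1, the exon that is deleted, were covered by control regions and 0 bp by csNrip1-/- regions. The promoters of 11 of 12 CM markers overlapped a region in both lists, and Nppa in neither. Markers of other cells of the heart were marked as follows in csNrip1-/- and control CMs: 0 and 2 of 8 fibroblast markers, 7 and 8 of 8 endothelial markers, 4 and 3 of 8 smooth muscle and pericyte markers, 0 and 0 of 8 leukocyte markers, and 3 and 1 of 8 Schwann cell and neuron markers. Among the 835 regions were the promoters of 3 of these markers, namely Kcnj8, which encodes a subunit of an ATP-sensitive potassium channel and is found in pericytes, and the neuronal genes Syt1 (a calcium sensor of synaptic vesicles) and Uchl1 (a ubiquitin hydrolase). The Syt1 region was centered at -910 bp (upstream negative) and did not reach the start, and the gene held 4 control regions. Other markers went the other way. Control-only promoter regions lay at Col3a1, Pdgfra and Cdh5. The neuronal genes Th and Tubb3, marked at a promoter in neither list, had 1075 and 652 bp covered by control and 0 bp by csNrip1-/- regions, flanks of 5000 bp included. The part of other cell types in the lists was not tested.

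Sequences at 4 of the promoters show the range of CG content among them. The stretches are the 200 bases before the annotated start in the GRCm38.p6 reference genome of RefSeq, read on the strand of the gene, with every CG in capitals. Plcl2 (chr17:50509203-50509402, plus strand) held the widest CpG-rich region, St7 (chr6:17743392-17743591, plus strand) the widest KO-only promoter region, one that was not CpG-rich, Hcfc2 (chr10:82698807-82699006, plus strand) the widest CpG-rich region at a principal start of a gene with no control region and no annotated UTR base in the stretch, and Acacb (chr5:114199579-114199778, plus strand) is the fatty acid oxidation gene among the KO-only promoters.
Plcl2: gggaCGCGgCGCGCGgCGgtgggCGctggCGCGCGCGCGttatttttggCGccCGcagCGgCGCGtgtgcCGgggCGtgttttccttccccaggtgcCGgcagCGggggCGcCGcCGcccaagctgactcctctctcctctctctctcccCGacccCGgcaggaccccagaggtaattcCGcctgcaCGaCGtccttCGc
St7: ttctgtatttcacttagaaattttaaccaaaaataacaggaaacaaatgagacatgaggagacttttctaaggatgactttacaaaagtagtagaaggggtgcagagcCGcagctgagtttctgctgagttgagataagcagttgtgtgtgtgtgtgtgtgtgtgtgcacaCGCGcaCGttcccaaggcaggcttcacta
Hcfc2: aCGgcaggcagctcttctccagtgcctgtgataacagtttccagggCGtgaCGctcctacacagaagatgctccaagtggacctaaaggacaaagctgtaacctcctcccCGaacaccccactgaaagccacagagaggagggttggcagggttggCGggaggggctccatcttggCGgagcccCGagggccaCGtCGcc
Acacb: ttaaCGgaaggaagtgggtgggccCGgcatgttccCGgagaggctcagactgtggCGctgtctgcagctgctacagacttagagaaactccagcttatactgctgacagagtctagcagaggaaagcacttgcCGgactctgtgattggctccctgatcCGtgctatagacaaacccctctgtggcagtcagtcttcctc
CG occurred 30 times in the Plcl2 stretch, 9 times in that of Hcfc2, 6 times in that of Acacb and 4 times in that of St7, where the last CGs follow a run of repeated TG.

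The KO-only promoter regions were intermediate in size. Their median width was 1353 bp, with a range from 502 to 6166 bp, against 997 bp for control-only and 2228 bp for shared csNrip1-/- promoter regions, the 4899 that overlapped a control region. Shared control promoter regions had a median of 2035 bp. Over all regions the median was 2291 bp in the csNrip1-/- list and 1846 bp in the control list, so greater width was not particular to the KO-only promoter regions. At least 1000 bp was reached by 74.97% of KO-only, 49.6% of control-only and 96.1% of shared regions. The number that ends each region's name, 2 at the least, is read here as HOMER's count of the replicate peaks merged into the region, since no header defines it. It was 2 in 604 of the KO-only regions, 3 in 218, 4 in 12 and 5 in 1. The share with 3 or more was 27.7% (24.7 to 30.8, 95% Wilson interval), against 7.94% (6.17 to 10.2) of the control-only regions and 56.0% of the shared csNrip1-/- and 44.8% of the shared control regions. Because the rule chose on the presence of regions, these sizes describe the choice and were not tested.

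The KO-only regions mostly lay across the start itself. The start was inside the region in 90.5%, compared with 76.9% of control-only and 98.2% of shared regions, and the median center was at -117 bp (upstream negative), against -218 and -119 bp. The nearest control region was 8960 bp away in the median and 60 to 1215090 bp away overall. It was within 1000 bp in 65 of the 835 (7.78%) and farther but within 5000 bp in 219 (26.2%), whereas in 226 (27.1%) it was farther than 20000 bp. Control-only regions were similar, with a median of 10156 bp to the nearest csNrip1-/- region. For them the same counts were 43 (6.10%), 195 (27.7%) and 227 (32.2%) of 705. The KO-only share of promoter regions per chromosome ran from 10.3% on chromosome 3 to 18.9% on chromosome 15.

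**Figure D1:**
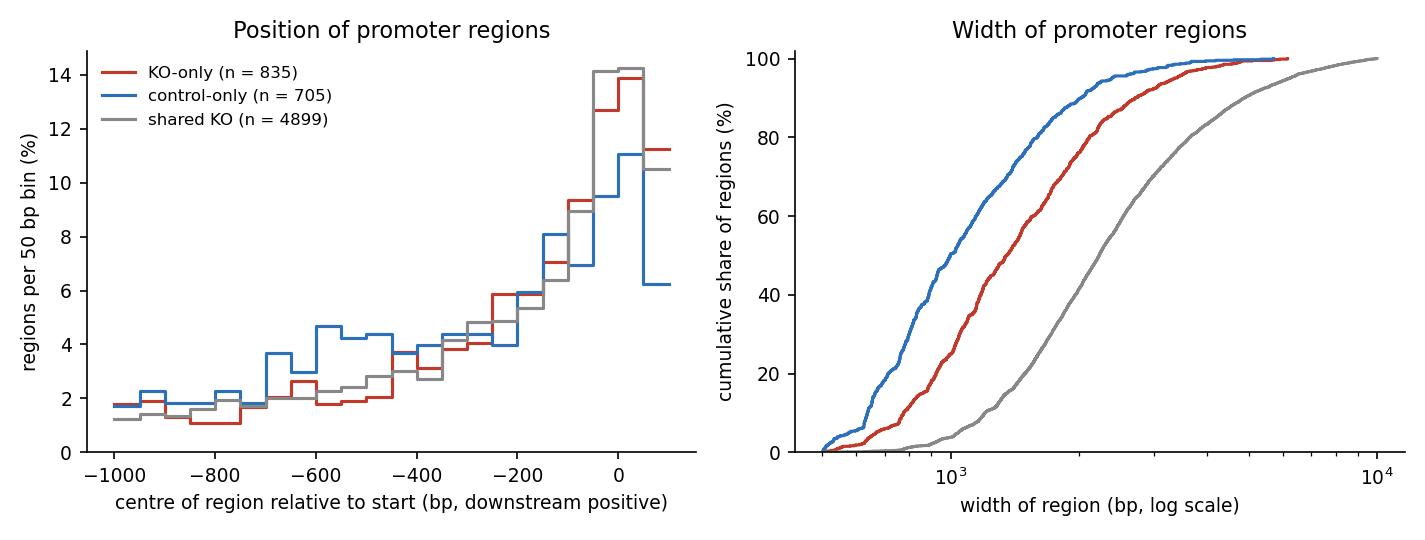
Left, share of regions (%) per 50 bp bin of the distance in bp from the annotated start to the region center, upstream negative; right, cumulative share (%) of regions by width in bp on a log axis, for 835 KO-only, 705 control-only and 4899 shared csNrip1-/- promoter regions. The KO-only widths (median 1353 bp) run between those of control-only (997 bp) and shared regions (2228 bp), and the KO-only positions follow those of the shared regions toward the start.

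The sequence around the starts, which the rule did not use, differed between the classes. A start was called CpG-rich where the 1000 bp around it had a GC content of at least 50% and a ratio of observed to expected CG of at least 0.6. By this measure 439 of 835 KO-only promoters (52.6%) were CpG-rich, against 204 of 705 control-only promoters (28.9%), a difference of 23.6 percentage points (18.8 to 28.3, 95% interval; 2-sided Fisher's exact test, adjusted P = 1.25e-20). Among shared csNrip1-/- promoters 61.8% were CpG-rich, which put the KO-only class 9.21 points lower (Fisher's exact test, adjusted P = 1.86e-06). Of the 93196 distinct starts annotated for protein-coding genes, 37.6% were CpG-rich. The median observed to expected ratio was 0.64 in KO-only, 0.38 in control-only and 0.69 in shared promoters, and the quartiles of the KO-only class, 0.32 and 0.78, span both kinds of promoter. The difference from control-only promoters kept its direction and passed the threshold in regions with 2 merged peaks (44.9% against 27.9%) and in those with 3 or more (72.7% against 41.1%).

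**Figure D2:**
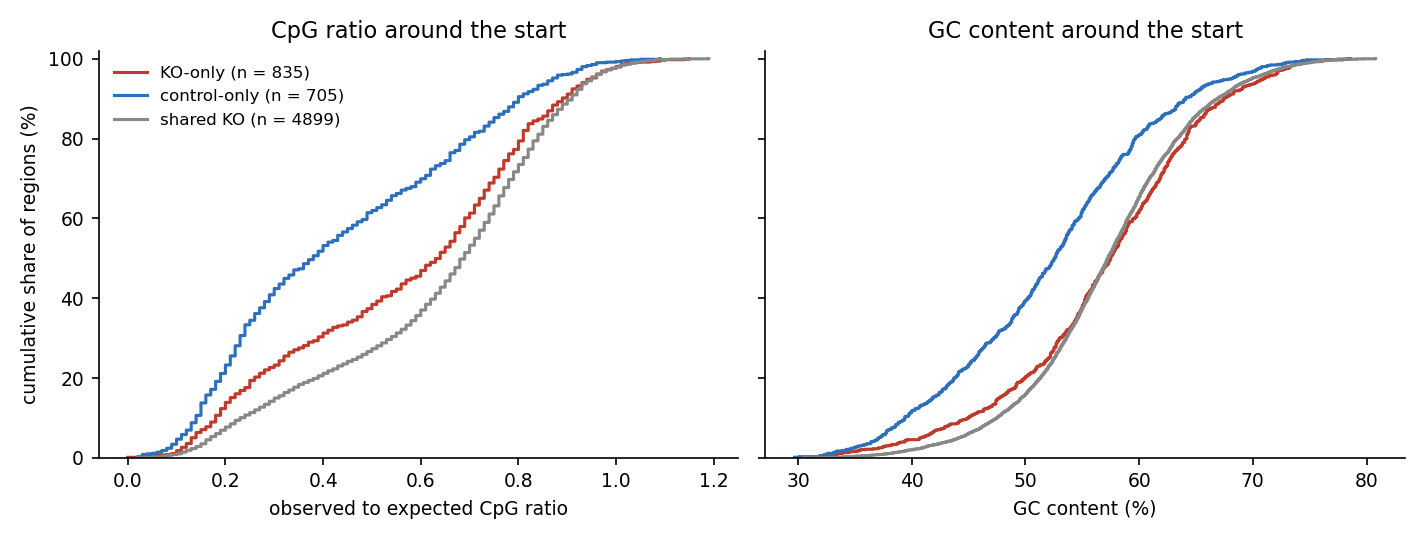
Cumulative share (%) of promoter regions by observed to expected CpG ratio (left, no unit) and by GC content in % (right) of the 1000 bp around the start, for the 3 classes. The control-only curve rises earliest (median ratio 0.38), and the KO-only curve (0.64) lies between it and the shared curve (0.69).

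The annotated role of the start differed in the same order. A principal start, one within 100 bp of the start of a transcript tagged as principal in the annotation, was the nearest start in 53.7% of KO-only, 43.1% of control-only and 60.9% of shared promoters. The difference from control-only promoters was 10.5 points (Fisher's exact test, adjusted P = 6.32e-05), and that from shared promoters was -7.24 points (adjusted P = 9.66e-05). A divergent protein-coding gene, one that starts on the other strand within 1000 bp, was found at 8.26% of KO-only, 3.83% of control-only and 13.98% of shared promoters, with differences of 4.43 points (Fisher's exact test, adjusted P = 2.99e-04) and -5.72 points (adjusted P = 4.45e-06). Among CpG-rich promoters alone the divergent share was 2.88 points higher in the KO-only class (Fisher's exact test, P = 0.374), which did not pass. The nearest start belonged to a protein-coding transcript in 525 regions, a retained-intron transcript in 135, a processed transcript in 130 and one subject to nonsense-mediated decay in 44.

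**Figure D3:**
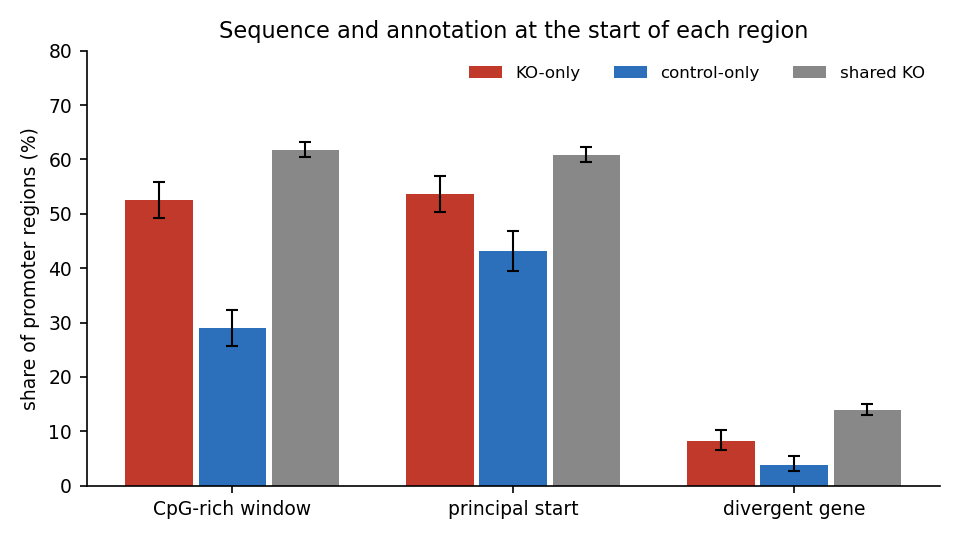
Share (%) of promoter regions with a CpG-rich window, a principal start or a divergent protein-coding gene; bars are shares of 835 KO-only, 705 control-only and 4899 shared csNrip1-/- regions, and error bars are 95% Wilson intervals. In each set the KO-only bar (52.6%, 53.7%, 8.26%) stands between the control-only bar (28.9%, 43.1%, 3.83%) and the shared bar (61.8%, 60.9%, 13.98%).

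The 835 regions fell into 2 unlike sets by what the control list held at the same gene. In 580 regions (69.5%, at 573 genes) no promoter of the gene overlapped a control region, so the gene as a whole was marked at a promoter only in csNrip1-/- CMs. In the other 255 a control region lay over another promoter of the gene. The first set was CpG-rich in 65.0% and at a principal start in 68.3%, and the second in 24.3% and 20.4%. The mirror set of control-only regions at genes with no csNrip1-/- promoter region was smaller, 378 of 705 (53.6%). Within the first kind of set the CpG-rich share was 19.5 points higher in KO-only than in control-only promoters (65.0% against 45.5%, Fisher's exact test, adjusted P = 1.07e-08), and within the second 14.5 points higher (24.3% against 9.79%, adjusted P = 8.05e-06). The difference in principal starts was 1.87 points (-4.14 to 7.99; Fisher's exact test, P = 0.572) in the first and 4.18 points (-2.09 to 10.6, P = 0.195) in the second. This split was added after the data were seen and uses the lists themselves, as the rule does. The genes of the KO-only regions also differed in annotated starts, with a median of 5 in the first set and 8 in the second. Tests within the sets therefore cannot decide whether a difference holds apart from the split.

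**Figure D4:**
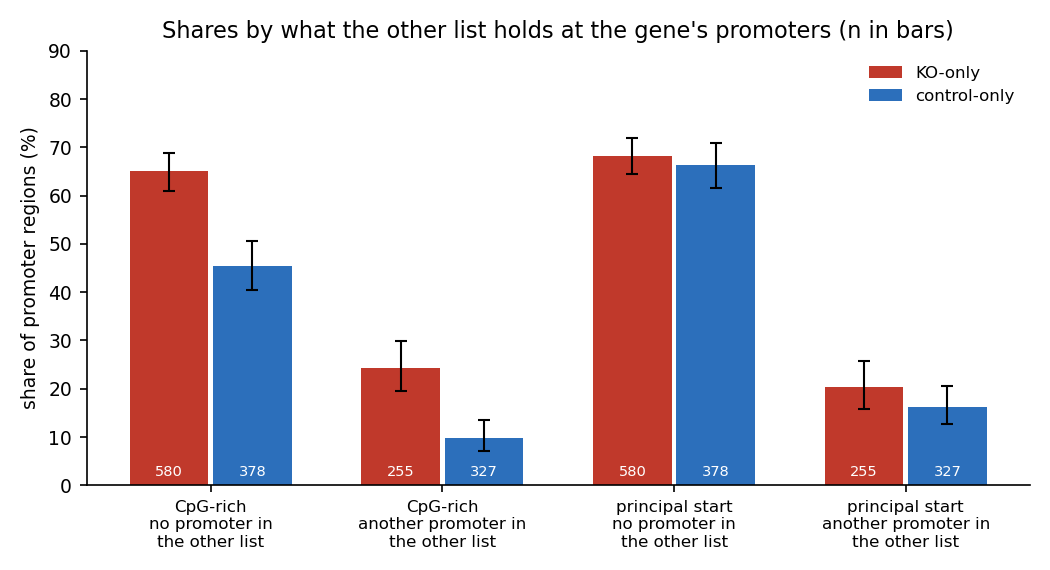
Share (%) of CpG-rich promoters and of principal starts among KO-only and control-only promoter regions, split by whether the other list held none of the gene's promoters or another promoter; error bars are 95% Wilson intervals and the number of regions is in each bar. CpG-rich shares differ within both splits (65.0% against 45.5%, and 24.3% against 9.79%), whereas the principal start bars lie close together (68.3% against 66.4%, and 20.4% against 16.2%).

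The widest KO-only promoter regions mixed CpG-rich first starts with internal ones. Plcl2, which encodes a catalytically inactive phospholipase C-like protein, had a region of 5904 bp across its principal start. The region at Tle3, a Groucho-family corepressor, spanned 5093 bp from 4 merged peaks, and the nearest control region was 29611 bp away. Pde7a, a phosphodiesterase that degrades cAMP, had 4807 bp from 4 merged peaks, with the nearest control region at 39482 bp. Its gene with 5000 bp on each side held 5 control regions, and a control-only region of 502 bp lay at another of its starts. Scn4b, an auxiliary subunit of the voltage-gated sodium channel, had 4761 bp at its single annotated start, 944 bp from a control region. Others were internal: St7 (6166 bp) lay at a start 50659 bp from the first one, and Ric1 (5641 bp), a Golgi exchange factor for a Rab protein, at one 10954 bp from it. Dcaf8 (4716 bp), a substrate receptor of a ubiquitin ligase, was 196 bp from a control region. Dazap2 (5735 bp) and Tbc1d10b (4788 bp), a regulator of Rab GTPases, completed the 10 widest with Slc25a22 (4684 bp), a mitochondrial glutamate carrier, whose region was merged from 5 peaks, the highest number, and lay 112 bp from a control region. Of these 10, 5 were CpG-rich, namely Plcl2, Dazap2, Tle3, Pde7a and Scn4b.

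At 279 of the 835 regions (33.4%) the gene held no control region at all, from 5000 bp before to 5000 bp after its body. The mirror class was not far from this. A region of the other list lay in the gene or these flanks at 66.6% of KO-only regions (556 of 835) and 72.1% of control-only regions (508 of 705). These shares come from the contrast that the rule used and were not tested. Eif5b, which joins the ribosomal subunits at the start of translation, had a csNrip1-/- region of 3427 bp from 3 merged peaks over its principal start, and the nearest control region was 104454 bp away. Txndc9 starts divergently there, as Lrrc75a does at Mmgt2, so neither mark can be given to one gene of its pair. Cox18, which inserts a subunit of cytochrome c oxidase into the inner mitochondrial membrane, had one of 3556 bp (3 peaks; 41389 bp from a control region). Hcfc2, a host cell factor protein, had 3559 bp (3 peaks; 59205 bp). The widest of this set was at Pim1, a serine/threonine kinase, with 4362 bp, followed by Mmgt2, a magnesium transporter, with 4357 bp and 4 peaks, and Chka, a choline kinase that starts phosphatidylcholine synthesis, with 3718 bp. Cep126 (3475 bp, 88787 bp from a control region) encodes a centrosomal protein and Ltbp3 (3213 bp) a protein that binds latent TGF-beta. Tmem37 (3414 bp) and Gpatch1 (3283 bp) complete the 10. Of these 10, all but Tmem37 were CpG-rich. The lists give no level, so whether the control CMs had signal at these promoters that was not called was not tested.

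Genes of the cell cycle were the pathway list with the most KO-only promoters: 5 of 28, where the background over all protein-coding genes was 3.79% (825 of 21755). They were Ccne1, the cyclin E that drives entry into DNA synthesis, its partner kinase Cdk2, the replicative helicase subunits Mcm2 and Mcm7, and Top2a, the topoisomerase that untangles replicated DNA. The regions were 901 bp at Top2a, 1029 bp at Mcm2, 1037 bp at Ccne1, 1979 bp at Cdk2 and 2400 bp at Mcm7, and each took in a principal start of its gene. Ccne1 (3 merged peaks) and Top2a (2) had no control region in or near the gene, with the nearest 45504 and 17669 bp away. Mcm7 starts divergently from Ap4m1 and Cdk2 from Pmel, so the mark there cannot be given to one gene of the pair. Other genes of the list went the other way: a promoter of Ccne2, the second cyclin E, and of the helicase subunits Mcm4 and Mcm6 overlapped a control region, and no csNrip1-/- region lay in these genes or within 5000 bp of them. They were named after their values were seen, and none is in the control-only class. That class held 1 gene of the list, Cdk1, which also had a csNrip1-/- region over a promoter. In all, 18 of the 28 genes were marked at a promoter in csNrip1-/- and 16 in control CMs. The lists were chosen with results of these data known, so the counts are descriptions.

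Of 16 circadian clock genes, 2 had a KO-only promoter region, where the share over all protein-coding genes was 3.79%, and 2 had a control-only one. The KO-only regions were at CpG-rich principal starts of Arntl and Clock, the partners of the activator that drives the clock. Arntl, which encodes the BMAL protein, had 1869 bp (3 merged peaks, 7950 bp from a control region), and Clock had 2806 bp (2 merged peaks, 4300 bp). At Arntl a control-only region of 1240 bp lay at another start 32289 bp downstream of the first, which was not CpG-rich. The other clock gene with a control-only promoter region was Hlf, and 16 and 15 of the 16 clock genes were marked in csNrip1-/- and control CMs.

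Among 18 cardiac transcription factors, 3 had a KO-only promoter region, where the share over all protein-coding genes was 3.79%. In all, 18 were marked at a promoter in csNrip1-/- and 17 in control CMs. At Mef2a (2153 bp, 104144 bp from the first start) and Tead1 (2223 bp, 12380 bp) the region was at an internal start in a gene that held 13 and 33 control regions. At Tead4 (1475 bp), a partner of the Hippo coactivators, it crossed the principal start. The nearest control region was 60 bp away at Mef2a, 977 bp at Tead4 and 3141 bp at Tead1. With gaps of up to 1000 bp counted as shared, the Mef2a and Tead4 regions would not be KO-only. Among 36 nuclear receptors and coregulators, Esrrg, which encodes ERR gamma, had 1468 bp at a CpG-rich principal start that lies 389077 bp from its first annotated start, in a gene with 27 control regions. A control-only promoter region of the cardiac transcription factors was at Myocd.

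Of 31 genes of fatty acid oxidation and uptake, 1 had a KO-only promoter region as the rule defines it, Acacb, where the share over all protein-coding genes was 3.79%. Acacb makes the malonyl-CoA that inhibits fatty acid entry into mitochondria, and its region of 1019 bp (chr5:114199079-114200097, 2 merged peaks) lay at an alternative start 53244 bp downstream of the first, in a gene with 7 control regions and a promoter marked in both lists. Acads, the short-chain acyl-CoA dehydrogenase, is not among the 835, but a csNrip1-/- region overlapped its promoter and no control region lay in the gene or within 5000 bp of it (1771 against 0 bp covered; named after its values were seen). In all 30 of the 31 were marked at a promoter in csNrip1-/- and 29 in control CMs. In branched-chain amino acid breakdown it was 1 of 18, Ivd (isovaleryl-CoA dehydrogenase), again at an internal start (1170 bp). None of 20 genes of triglyceride synthesis and lipolysis, 19 of the tricarboxylic acid cycle, 26 of glucose use, 27 histone deacetylases and acetyltransferases and 37 complex I subunits had one, and 18, 19, 26, 27 and 34 of them were marked at a promoter in csNrip1-/- CMs, against 18, 19, 26, 25 and 35 in control CMs. Complex I subunits had 1 control-only promoter. Of 18 genes of mitochondrial dynamics and mitophagy, Mfn2, a mitochondrial fusion GTPase, had 1026 bp at an internal start 17181 bp from the first, and Tfam, which packages and transcribes mitochondrial DNA, had 2982 bp that took in its principal start, with no control region within 10411 bp. That list had 1 control-only promoter, at Fis1, and 18 and 17 of its genes were marked at a promoter in csNrip1-/- and control CMs.

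In the remaining lists the counts are again to be read against the 3.79% of all protein-coding genes. Of 27 sarcomere genes 1 had a KO-only promoter, Myl4, an atrial myosin light chain, at an internal start (1162 bp). Of 23 genes of calcium cycling and adrenergic signalling they were Camk2d, the main cardiac isoform of a calcium-dependent kinase, at an internal start 210860 bp from the first (1094 bp), and Adcy5, an adenylyl cyclase, at its CpG-rich principal start (1395 bp). Fosl1, a component of AP-1, was the 1 of 17 immediate early genes (883 bp), and Ercc2, a helicase of nucleotide excision repair, the 1 of 30 DNA repair genes (1099 bp). Control-only promoters numbered 0 in the sarcomere and immediate early lists, 1 in calcium cycling and adrenergic signalling (Cacnb2, a calcium channel subunit) and 2 in DNA repair.

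By family, and against the same 3.79%, KO-only promoters were found at 19 of 391 Zfp zinc finger genes (4.86%; the widest Zfp651, 3496 bp, and Zfp703, 3485 bp). Solute carriers had them at 16 of 369 (4.34%; Slc25a22 and the sugar transporter Slc50a1, 3397 bp). A group gathered as centrosomal and intraflagellar transport genes had them at 13 of 164 (7.93%; Cep126 and Ttc39b, 2843 bp). The KO-only genes of that group included Ttc39b and Wdr genes besides Cep and Ift genes, so its label need not hold for each member. Transmembrane protein genes had them at 9 of 242 (3.72%; Tmem37 and Tmem267, 2191 bp). Potassium channel genes had them at 6 of 93 (6.45%; Kcng4, 1627 bp, and Kcnh2, 1334 bp, the channel of the rapid delayed rectifier current). The Kcnh2 region lay at an internal start 29350 bp from the first, 284 bp from a control region, in a gene with 5 control regions. With gaps of up to 1000 bp counted as shared it would not be KO-only. Of 30 Mediator subunits 3 had one, Med8, Med12l and Med16, named after their values were seen, and all 3 were at CpG-rich principal starts. Control-only regions took 14, 13, 11, 8, 6 and 0 genes of these 6 families. A gene can have a KO-only promoter only if a csNrip1-/- region lies over one of its promoters. Such a region was found in 11462 of the 21755 protein-coding genes, and in 310, 186, 140, 165, 27 and 30 genes of the 6 families. The 3.79% does not account for this difference between families. Among 79 cytosolic and 78 mitochondrial ribosomal protein genes there were 2 KO-only promoters each. Among 1134 olfactory receptor genes there were 0, but only 7 of these were marked at a promoter in csNrip1-/- CMs. Coiled-coil domain genes had 2 KO-only and 6 control-only promoters among 139, and collagens 1 and 5 among 45.

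Matches to the ERR motif were rare in the KO-only promoters. The motif was searched as TCAAGGTCA on both strands from 250 bp before to 50 bp after the start. It was found in 4 of 835 KO-only promoters (0.479%; 0.186 to 1.23, 95% Wilson interval), 4 of 705 control-only promoters (0.567%; Fisher's exact test, P = 1), 0.327% of shared promoters and 0.466% of all annotated starts. The 4 are shown because ERRs are among the partners of RIP140, with the match in capitals, read on the strand of the gene: Zfp764 (chr7:127406986-127407033, minus strand), Ankrd39 (chr1:36542287-36542367, minus strand), Aftph (chr11:20727733-20727813, minus strand) and Mfn2 (chr4:147887704-147887773, minus strand).
Zfp764: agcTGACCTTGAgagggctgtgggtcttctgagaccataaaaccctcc
Ankrd39: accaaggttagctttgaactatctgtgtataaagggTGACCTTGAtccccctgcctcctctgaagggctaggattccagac
Aftph: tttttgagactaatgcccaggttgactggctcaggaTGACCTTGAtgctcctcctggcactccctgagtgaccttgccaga
Mfn2: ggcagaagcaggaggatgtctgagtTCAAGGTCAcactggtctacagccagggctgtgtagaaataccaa
In Mfn2 the match reads forward along the gene and in the other 3 it is on the opposite strand. The first base of the match was at -247 bp from the start in Zfp764, -101 bp in Ankrd39, -170 bp in Aftph and -225 bp in Mfn2. The reference marks all 9 bases of the match in Mfn2, 6 in Ankrd39 and 0 in Zfp764 and Aftph as repeat. The 4 regions were 1026 to 1191 bp wide, none was CpG-rich, and only that of Zfp764, a zinc finger gene, was at a principal start. A match is not evidence of binding.

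Of the 14 motifs searched, 3 differed between KO-only and control-only promoters after adjustment over the 14, and 4 had an unadjusted P under 0.05. The ETS motif CCGGAAGT was found in 5.39% of KO-only and 2.27% of control-only promoters (45 and 16 regions; Fisher's exact test, adjusted P = 0.0114), and the SP and KLF motif GGGGCGGGG in 17.7% and 11.9% (148 and 84 regions; adjusted P = 0.0114). The consensus of MEF2, a factor of muscle genes, had 0 matches in 835, which allows a share of up to 0.359% (3 counts in 835; the upper Wilson limit is 0.458%), and 6 in the 705 control-only promoters (0.851%; Fisher's exact test, adjusted P = 0.0425). The TATA box TATAAAA, searched on the strand of the gene only, was in 1.20% and 2.98% (Fisher's exact test, adjusted P = 0.0592). Over all 93196 annotated starts the share was 4.48% for ETS, 12.2% for SP and KLF, 0.446% for MEF2 and 2.54% for the TATA box. These background shares were not tested. For SP and KLF the control-only share was near the background, and for ETS the KO-only share was 5.39% against 4.48%. With CpG-rich promoters alone or the others alone, which are fewer regions each, none of the 14 passed. The ETS difference kept its direction in both, at 2.39 points in CpG-rich promoters (32 of 439 against 10 of 204; Fisher's exact test, P = 0.305) and 2.09 points in the others (13 of 396 against 6 of 501; P = 0.0364, adjusted P = 0.254), against 3.12 points in all. The MEF2 call also ended when a gap of up to 1000 bp counted as shared (Fisher's exact test, adjusted P = 0.0977).

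Against shared csNrip1-/- promoters the pattern was another one. The ETS motif was less frequent in KO-only than in shared promoters (5.39% against 8.82%, adjusted P = 0.0047), as were the CRE TGACGTCA (0.958% against 3.33%, adjusted P = 8.06e-04), the NRF1 motif TGCGCATGC (1.32% against 2.78%, adjusted P = 0.0431) and MEF2 (0% against 0.755%, adjusted P = 0.0203), by Fisher's exact tests over regions. The nuclear receptor half-site AGGTCA, which is contained in the ERR motif, was in 14.5% of KO-only, 15.7% of control-only and 12.3% of shared promoters, with intervals of both differences that include 0. The other motifs (SRF by its consensus, AGATAAG of GATA factors, AP-1 TGAGTCA, the E-box CACGTG, YY1 AAGATGGCG and the CCAAT box) did not pass in either comparison.

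**Figure D5:**
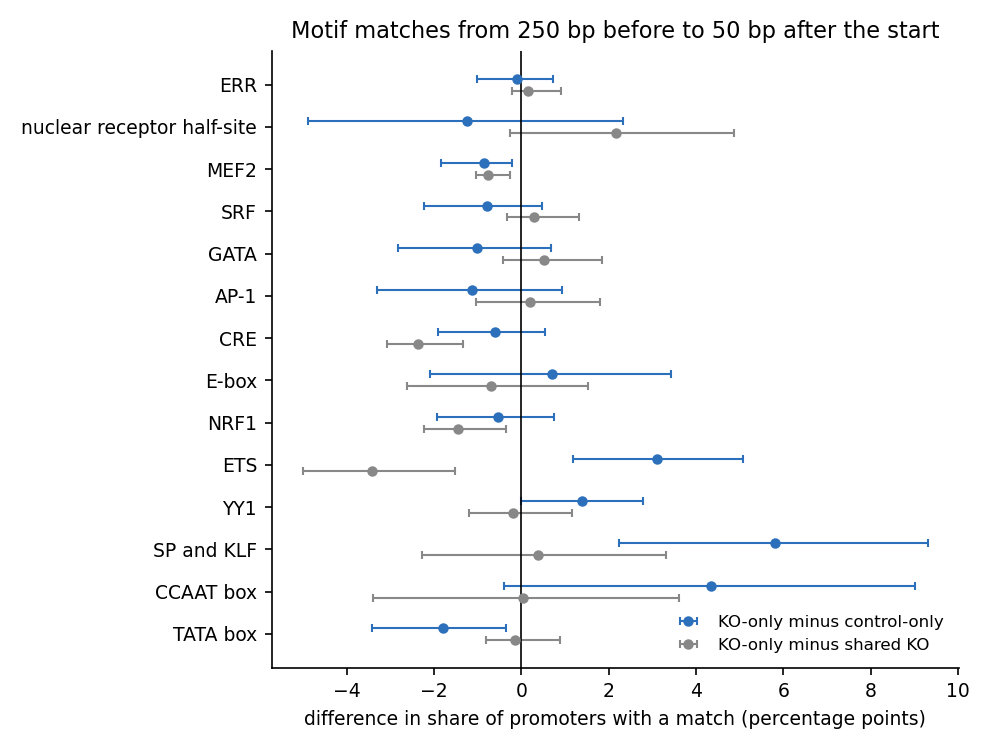
Difference in the share of promoters with a match (percentage points) between KO-only and control-only (blue) or shared csNrip1-/- (gray) promoters for 14 motifs; points are differences and bars 95% intervals, not adjusted for the number of motifs. ETS lies right of 0 against control-only (3.12 points) and left of 0 against shared promoters (-3.43 points), and the interval of the SP and KLF motif excludes 0 against control-only promoters (5.81 points) and includes it against shared ones (0.39 points).

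The 835 regions belonged to 825 genes by the nearest start, and 10 genes had 2 of them. By summed width the first of these were Apbb1, which encodes an adaptor of the amyloid precursor protein (one region of 4551 bp from 4 merged peaks), the monocarboxylate transporter Slc16a7, the corepressor Bcorl1, the phosphatase Dusp13, and Fam118a. In 17 genes a KO-only region at one promoter went with a control-only region at another. In total 1082 protein-coding genes had a csNrip1-/- region and no control region over any promoter, and 631 had the reverse.

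At the limits of the rule, the center of the Dctn6 region was at the upstream limit (-1000 bp) and that of Map1b at the downstream limit (100 bp), while regions at Ccin (-1002 bp) and Capg (103 bp) just missed it. The Mef2a region was the closest to a control region, with 60 bp between them, and a shared region at Taf8 overlapped a control region by 28 bp. No KO-only promoter region came near the width limit of 10000 bp, the widest being the 6166 bp of St7.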

How the data were processed

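H3K27ac CUT&RUN was performed by the authors in CMs of csNrip1-/- mice and littermate controls (12 samples, assigned to 4 groups through the genotype and antibody given for each). The authors aligned reads with Bowtie2 2.4.2, removed duplicates with SAMtools, called peaks per replicate against IgG with HOMER 4.11.1 and merged replicates. The 2 deposited lists give region positions in bp, a name and a score that is 1 throughout and was not used. Depth and replicate error are unknown, and intervals cover counting error only.

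The members, gene lists and motifs were chosen with earlier results of these data known. Genes and starts came from GENCODE M21, sequence from the GRCm38.p6 reference of RefSeq. A start was assigned as the nearest to the region center. Shares were compared with 2-sided Fisher's exact tests over regions, with Benjamini-Hochberg adjustment over 3 annotation comparisons or 14 motifs and a threshold of 0.05, Wilson intervals for shares and Newcombe intervals for differences at 95%. Neighboring regions and genes are not independent. Genes were named as the 10 widest, the 5 with most merged peaks, all in a fixed list (5 per list at most), the 2 widest per family with 5 or more, those with 2 regions (5 at most), the 10 widest without a control region in the gene or 5000 bp around it, ERR or MEF2 holders (8 at most), genes the study names, and those at the limits of the rule. Some results under this rule are not reported here.

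Alternatives changed the overlap, width, promoter and start definitions and the motif window. Splits by the other list at the gene's promoters, by number of merged peaks and by start position were chosen after seeing the data. The steps were tested on simulated data. Python 3.11.15, numpy 2.4.6, scipy 1.17.1, pysam 0.24.0, samtools 1.23.1 and matplotlib 3.10.9 were used.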

Additional observations from a re-analysis of the deposited data

How the results depend on the processing

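No paired analysis was possible because each list merges the replicates of a genotype, and for the same reason no replicate could be left out. The number of KO-only promoter regions rose from 835 to 1285 once promoters ran 2000 bp upstream and 500 bp downstream, and to 1363 when any base of a region counted. Their share of csNrip1-/- promoter regions (14.6%) was 13.4% with gaps of up to 1000 bp counted as shared, 19.4% when 50% of the region had to be covered, 11.7% for regions of at least 1000 bp, 18% for equal numbers of the widest regions, 11.9% for any base and 13.1% for starts of protein-coding transcripts only.

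The CpG-rich difference kept its direction and its side of the threshold in the 12 other alternatives and reversed only against shared csNrip1-/- promoters (-9.21 points), as did the principal start (-7.24 points) and divergent gene differences (-5.72 points), which is the other comparison of the report. The principal start difference (10.5 points) no longer passed at genes with no promoter in the other list (1.87 points), at genes with another promoter there (4.18 points) or with 3 or more merged peaks (8.44 points, in 231 and 56 regions). The divergent gene difference (4.43 points) no longer passed at genes with another promoter in the other list (1.83 points), with 3 or more merged peaks (3.14 points) or in CpG-rich promoters (2.88 points). The cause was not tested.

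Motifs past the threshold numbered 3, but 0 in CpG-rich promoters and 0 in the others, which are fewer regions each. The ETS difference reversed against shared promoters (-3.43 points), and that of the SP and KLF motif in promoters that are not CpG-rich (-0.42 points, P = 0.894 by Fisher's exact test). In the central 200 bp of the regions ETS and MEF2 did not pass (Fisher's exact test, adjusted P = 0.367 and 0.993). The TATA box did (17 KO-only and 33 control-only regions; Fisher's exact test, adjusted P = 0.0266). There it was searched on both strands, not only on that of the gene, so this is not the same search as at the start. With no signal or depth in the lists, a region that one genotype missed by a small margin and one it lacked cannot be told apart.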
